A study of Mus musculus with 36 samples.

Results

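Extracellular ATP and its breakdown products act on cells through purinergic receptors, and 10 genes of this system were followed through the deposited counts of 43472 genes. They were taken by name: the P2X channels P2rx4 and P2rx7, the P2Y receptors P2ry1, P2ry2, P2ry6 and P2ry14, the ectonucleotidases Entpd1 (CD39), Entpd2 and Nt5e (CD73), and the adenosine receptor Adora2b. The cells were primary wild-type enteric glial cells (EGCs), grown as neurospheres from the intestine of C57BL/6J mouse embryos and then differentiated. EGCs were left unstimulated, stimulated with conditioned medium of digested healthy colon (H-CM), or stimulated with conditioned medium of digested orthotopic MC38 colon tumors (tumor microenvironment conditioned medium, TME-CM), for 6 h, 12 h or 24 h. Each of the 9 groups had 4 libraries, 36 in all. The model is a culture exposed to soluble products of dissociated tissue, in which the healthy colon medium is the control for medium conditioned by tissue.

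Purinergic signaling starts when ATP or UTP leaves a cell, through channels or by damage, and binds P2X receptors, which are cation channels, or P2Y receptors, which couple to G proteins. Ectonucleotidases at the cell surface then remove phosphates: CD39, the product of Entpd1, and NTPDase2, the product of Entpd2, degrade ATP, and CD73, the product of Nt5e, turns AMP into adenosine, which acts on adenosine receptors such as A2B. In the gut, enteric glia are known to respond to nucleotides with calcium signals, and extracellular adenosine is known for its immunosuppressive effects in tumors.

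Depth set what could be seen. Library totals ranged from 13518 to 5244763 counts at 6 h, from 2005239 to 5961933 at 12 h and from 1608018 to 7552509 at 24 h, and Yam1 alone took 11 to 48.6% of a library's counts. Levels are given as CPM, a gene's counts scaled to a common library size, and compare a gene with itself between libraries, since the 3′ tags were not scaled for differences in capture between genes. One library of H-CM at 6 h held 13518 counts, where a count of 0 allows up to 222 CPM by its unscaled total. On the scaled library size used for CPM, 1 count of P2ry6 in it was 32.7 CPM. The 6 h values are therefore given for completeness. The labels do not say that replicates came from separate cultures, so the p-values measure the spread between these libraries, which may be technical. Among the cell type markers, 8 of 8 glial genes were detected, with a summed level of 223 to 334 CPM at 12 h and 24 h. Markers of other cells were present too, and their values at 12 h and 24 h are given after the members.

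The clearest differences were in 3 receptors, all higher in TME-CM. P2rx4 was 1.55-fold higher in TME-CM than in H-CM at 24 h, Adora2b was 4.82-fold higher in TME-CM than in H-CM at 12 h, and P2ry6 was 3.81-fold higher in TME-CM than in unstimulated EGCs at 24 h. P2ry6 against H-CM at 24 h did not pass the test (edgeR's quasi-likelihood test, adjusted p = 0.0613). Each of the 3 differences passed in 3 of 8 fits with 1 library left out. None passed in one model of all 36 libraries. The enzymes Entpd1 and Entpd2 did not pass the test in any comparison of media or times. Nt5e was near zero throughout, with 48 counts in all 36 libraries.

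A member was tested at a time point only where it passed a filter on low counts, which kept 4 of the 10 members at 6 h, 7 at 12 h and 9 at 24 h. Near zero was defined as at most 3 counts in each library of a group or a group mean under 1 CPM. By this rule Nt5e was near zero in 9 of 9 groups, P2ry14 in 3, P2rx7 and Entpd1 in 2 each, and P2ry1, P2ry2 and P2ry6 in 1 each. P2rx4, Entpd2 and Adora2b were near zero in 0 groups.

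**Figure D1:**
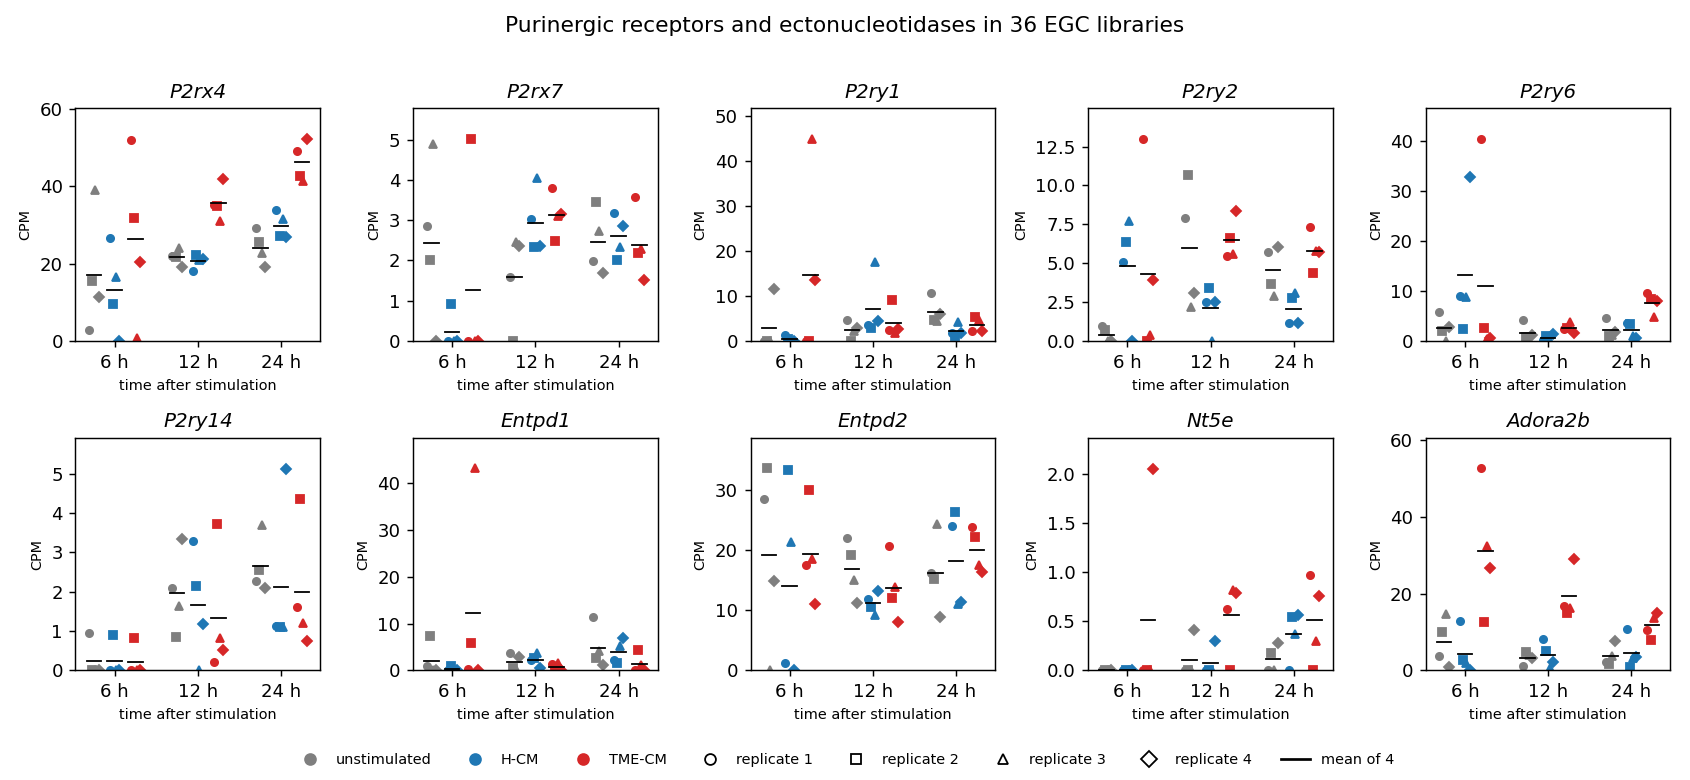
Level of each of the 10 genes, in CPM on a linear axis starting at 0, in all 36 libraries by time after stimulation; colors give the medium, symbols the replicate number and bars the mean of 4 libraries. P2rx4 and Adora2b in TME-CM lie above both other groups at 12 h, while the Nt5e axis ends near 2 CPM.

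P2rx4 encodes the P2X4 channel, an ATP-gated cation channel that is also found in microglia and macrophages. It lies on chromosome 5 (GRCm38 chr5:122707544-122729738, plus strand), on the same strand as P2rx7 (chr5:122643911-122691432). At 24 h its level was 29.1, 25.5, 22.8 and 19.2 CPM in the 4 unstimulated libraries. In H-CM at 24 h it was 34.0, 27.1, 31.4 and 26.8 CPM. In TME-CM at 24 h it was 49.1, 42.8, 41.3 and 52.3 CPM. Every TME-CM library lay above every library of the other groups, while the H-CM and unstimulated libraries overlapped. TME-CM exceeded H-CM by 0.63 on the log2 scale (SE 0.17, edgeR's quasi-likelihood test with Benjamini-Hochberg adjustment, adjusted p = 0.0259) and unstimulated EGCs by 0.96 (SE 0.17, adjusted p = 0.00036). Between H-CM and unstimulated EGCs the log2 difference was 0.33 (95% interval -0.03 to 0.68, adjusted p = 0.534).

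The same order of TME-CM above the other media was seen for P2rx4 at 12 h without passing the test. TME-CM libraries held 35.2, 34.8, 31.2 and 41.9 CPM. H-CM libraries held 18.2 to 22.2 CPM and unstimulated libraries 19.0 to 24.1 CPM, so that TME-CM did not overlap with either and the other groups overlapped. The log2 fold changes were 0.79 over H-CM (SE 0.22, adjusted p = 0.0846) and 0.72 over unstimulated EGCs (SE 0.23, adjusted p = 0.0887). DESeq2's Wald test called both (adjusted p = 0.0268 and 0.043). Leaving out 1 library at a time, P2rx4 in TME-CM against H-CM at 24 h stayed called in 3 of 8 fits, and the call ended without any one of H-CM replicates 2, 3 and 4 or TME-CM replicates 1 and 4 (adjusted p 0.0233 to 0.111 over the 8 fits, log2 differences 0.57 to 0.70). Against unstimulated EGCs at 24 h it stayed called in 8 of 8 fits. In a model of all 36 libraries, which shares its estimate of spread with the 6 h libraries, both calls ended (adjusted p = 1 and 0.974), as did those of Adora2b (0.236 and 0.0538) and P2ry6 (0.951) given below.

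The genes whose pattern over the 6 group means of 12 h and 24 h lay nearest to that of P2rx4 were Tspo, Nfrkb and Abcg1. Their centered log2 CPM differed from that of P2rx4 by 0.067, 0.070 and 0.073 on average, while P2rx4 itself spanned 1.0, among 13105 genes compared. This is a description of likeness over 6 values.

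P2rx7 encodes the P2X7 channel, which needs high ATP and is known for driving the inflammasome in macrophages. Unlike P2rx4, it held few counts. At 24 h it was at 1.68 to 3.46 CPM in unstimulated EGCs, 2.01 to 3.17 CPM in H-CM and 1.52 to 3.58 CPM in TME-CM, and the 3 groups overlapped. The log2 difference of TME-CM from H-CM was -0.08 (95% interval -1.12 to 0.97, adjusted p = 0.968), an interval that leaves room for a change of about the size seen in P2rx4. At 12 h the TME-CM libraries, at 2.48 to 3.79 CPM, lay above the unstimulated libraries, at 0 to 2.46 CPM, with an adjusted p of 0.798.

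**Figure D2:**
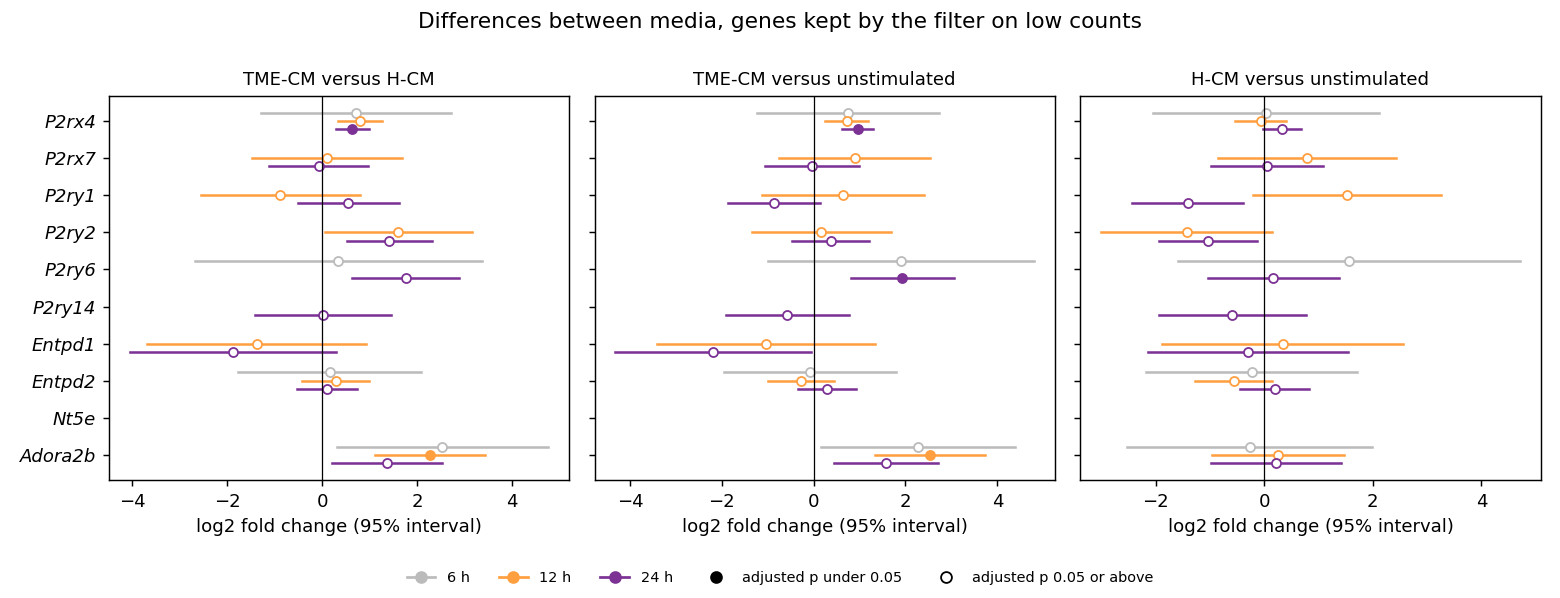
Log2 fold change with its 95% interval for each member that passed the filter on low counts, for 3 pairs of media at each time; filled points have an adjusted p under 0.05. Filled points are P2rx4 and Adora2b against H-CM, and P2rx4, P2ry6 and Adora2b against unstimulated EGCs.

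Adora2b encodes the A2B adenosine receptor, a low-affinity receptor that couples to cyclic AMP. It lies on chromosome 11 (chr11:62248984-62266453, plus strand). At 12 h its level was 1.05, 4.71, 4.10 and 3.19 CPM in unstimulated EGCs and 8.25, 5.02, 0.713 and 2.22 CPM in H-CM. In TME-CM at 12 h it was 16.8, 14.9, 16.3 and 29.1 CPM. The TME-CM libraries did not overlap with the other groups, which overlapped with each other. The log2 fold change was 2.27 over H-CM (SE 0.56, adjusted p = 0.0353) and 2.53 over unstimulated EGCs (SE 0.58, adjusted p = 0.00915). TME-CM replicate 4, at 29.1 CPM, stood apart from its group. Without it, the log2 difference was 2.0 from H-CM (adjusted p = 0.199) and 2.26 from unstimulated EGCs (adjusted p = 0.0616), and neither was called. With 1 library left out, the call against H-CM held in 3 of 8 fits (adjusted p 0.00886 to 0.199) and also ended without TME-CM replicate 1 or 3 or H-CM replicate 2 or 4, while that against unstimulated EGCs held in 7 of 8 (adjusted p 0.0127 to 0.0616). The call against H-CM also ended when the fit held only the groups compared (adjusted p = 0.0654).

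At 24 h Adora2b was at 10.4, 7.85, 13.7 and 14.8 CPM in TME-CM. The H-CM libraries were at 10.9, 0.915, 3.33 and 3.42 CPM, so that H-CM replicate 1 fell within the TME-CM range, and the unstimulated libraries were at 1.64 to 7.70 CPM. The log2 differences were 1.36 from H-CM (SE 0.55, adjusted p = 0.204) and 1.58 from unstimulated EGCs (SE 0.54, adjusted p = 0.0825). Without H-CM replicate 1 the difference from H-CM was 2.27 on the log2 scale and was called (adjusted p = 0.00959, range over the 8 fits with 1 library left out 0.00959 to 0.457), as it was with no filter on low counts (0.00996). Without unstimulated replicate 4 the difference from unstimulated EGCs was 2.19 and was called (adjusted p = 0.0173, range 0.0173 to 0.21), as it was with DESeq2 (0.0455), no filter (0.000595) and only the groups compared (0.0242). At 6 h the TME-CM libraries held 52.6, 12.5, 32.3 and 26.5 CPM. The H-CM libraries held 12.7, 2.74, 1.94 and 0 CPM, the last from the library of 13518 counts, and the unstimulated ones 0.91 to 14.6 CPM. The difference from H-CM at 6 h was 2.53 on the log2 scale (SE 1.09, adjusted p = 0.792), and 2.52 without that library (adjusted p = 0.886). In the model of all 36 libraries Adora2b was called at 6 h (log2 difference 2.60, adjusted p = 0.0492). That model called 899 genes in TME-CM against H-CM at 6 h, where the fit of the 6 h libraries alone called 9.

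The promoters of Adora2b and P2rx4 are shown because these receptors were called in TME-CM against H-CM. Each is RefSeq's window of 300 bases, from 250 bases before the start site, on build GRCm38.p6, read 5′ to 3′ on the plus strand. Capitals mark a match to one of 6 short motifs, which were chosen after the values were seen and searched on both strands.
Adora2b, chr11:62248734-62249033: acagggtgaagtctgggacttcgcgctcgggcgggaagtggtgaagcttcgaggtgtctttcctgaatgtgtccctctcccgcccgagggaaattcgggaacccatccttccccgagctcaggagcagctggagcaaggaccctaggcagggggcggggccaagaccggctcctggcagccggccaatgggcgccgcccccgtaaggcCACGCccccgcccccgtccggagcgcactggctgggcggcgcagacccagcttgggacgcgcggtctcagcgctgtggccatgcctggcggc
P2rx4, chr5:122707294-122707593: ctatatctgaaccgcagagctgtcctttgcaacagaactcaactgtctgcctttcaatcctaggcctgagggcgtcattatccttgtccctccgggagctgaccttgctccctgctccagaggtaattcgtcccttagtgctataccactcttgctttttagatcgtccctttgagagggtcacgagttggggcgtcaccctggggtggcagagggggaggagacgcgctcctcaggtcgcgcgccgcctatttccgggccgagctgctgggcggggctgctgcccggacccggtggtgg
The motifs were the hypoxia-response cores ACGTG and GCGTG, an NF-kB motif, the AP-1 motif TGANTCA, the STAT motif TTCNNNGAA and the cyclic AMP motif TGACGTCA. The Adora2b window held GCGTG once, on the reverse strand at -42 from the start site, a match that 32.4% of all 32851 promoter windows hold. The P2rx4 window held none of the 6 motifs in these letters. Of all windows, 19.6% held ACGTG, 1.63% the NF-kB motif, 7.81% TGANTCA, 8.3% TTCNNNGAA and 1.79% TGACGTCA. GC content was 70% in Adora2b and 60.3% in P2rx4. Of the 10 members, 9 had a RefSeq promoter entry, and P2ry6 had none.

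P2ry6 encodes a receptor for UDP and P2ry2 a receptor for ATP and UTP, and both lie on the minus strand of chromosome 7 (chr7:100937630-100974649 and chr7:100996568-101012866). P2ry6 at 24 h was at 9.59, 8.29, 4.73 and 7.99 CPM in TME-CM. In unstimulated EGCs it was at 4.56, 0.91, 1.12 and 1.82 CPM, and in H-CM at 3.62, 3.29, 0.986 and 0.571 CPM. All 4 TME-CM libraries lay above both other groups. The log2 fold change was 1.93 over unstimulated EGCs (SE 0.54, adjusted p = 0.0225) and 1.76 over H-CM (SE 0.54, adjusted p = 0.0613). The difference from H-CM was called with no filter (adjusted p = 0.0131), with DESeq2 (0.0305), with only the groups compared (0.0357) and without H-CM replicate 1 (0.043, range over the 8 fits with 1 library left out 0.043 to 0.234). With 1 library left out, the call against unstimulated EGCs held in 3 of 8 fits and ended without unstimulated replicate 2, 3 or 4 or TME-CM replicate 1 or 4 (adjusted p 0.00264 to 0.0884).

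At 12 h P2ry6 did not pass the filter. Its counts were 11, 6, 18 and 6 in TME-CM, 1, 6, 0 and 9 in H-CM and 8, 2, 0 and 9 in unstimulated EGCs. In CPM the TME-CM libraries lay above H-CM without overlap, at 1.57 to 3.71 against 0 to 1.33 CPM, and overlapped with unstimulated EGCs. At 6 h TME-CM replicate 1 held 202 of the group's 209 counts, or 40.4 CPM against at most 2.51 CPM in the other TME-CM libraries.

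The lowest group mean of P2ry2 at 12 h and at 24 h was that of H-CM. At 24 h its level was 1.13, 2.75, 3.08 and 1.14 CPM in H-CM, and 7.32, 4.36, 5.79 and 5.71 CPM in TME-CM. The unstimulated libraries held 5.71, 3.64, 2.89 and 6.02 CPM. TME-CM lay above H-CM without overlap and overlapped with unstimulated EGCs. The log2 difference of TME-CM was 1.41 from H-CM (SE 0.43, adjusted p = 0.0592, called by DESeq2 at 0.0399 and without TME-CM replicate 2 at 0.0435) and 0.37 from unstimulated EGCs (95% interval -0.47 to 1.21, adjusted p = 0.737). H-CM differed from unstimulated EGCs by -1.04 on the log2 scale (SE 0.44, adjusted p = 0.345). At 12 h TME-CM libraries held 5.47 to 8.38 CPM and H-CM libraries 0 to 3.40 CPM, again without overlap, with an adjusted p of 0.442.

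P2ry1, a receptor for ADP on chromosome 3 (chr3:61002795-61008982), was the 1 member for which H-CM and unstimulated EGCs did not overlap at 24 h, beside 8.15% of all genes tested. There it was at 10.6, 4.55, 4.33 and 6.02 CPM in unstimulated libraries and at 1.81, 1.10, 4.19 and 1.71 CPM in H-CM. TME-CM libraries, at 2.11, 5.24, 4.72 and 2.09 CPM, overlapped with both. The log2 difference of H-CM from unstimulated EGCs was -1.41 (SE 0.50, unadjusted p = 0.00897, adjusted p = 0.199). At 12 h the difference had the opposite sign, 1.52 on the log2 scale (SE 0.83, adjusted p = 0.944), and H-CM replicate 3 stood at 17.6 CPM, beside 2.87 to 4.43 CPM in the other H-CM libraries. In the annotation P2ry1 shares 992 exon bases with Gm37035 on the opposite strand, 0 of them in its last 1000 exon bases.

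P2ry14 encodes a receptor for UDP-glucose and also lies on chromosome 3 (chr3:59113855-59153618). It had 209 counts in all libraries and passed the filter at 24 h only. There its level was 2.10 to 3.69 CPM in unstimulated EGCs, 1.10 to 5.14 CPM in H-CM and 0.761 to 4.36 CPM in TME-CM, and the groups overlapped. TME-CM differed from H-CM by 0.02 on the log2 scale (95% interval -1.42 to 1.45, adjusted p = 0.995).

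Among the enzymes, Entpd2 had the most counts, 2289 in all libraries. NTPDase2 turns ATP mainly into ADP. At 24 h Entpd2 was at 16.3, 15.3, 24.4 and 8.96 CPM in unstimulated EGCs, and 24.0, 26.4, 11.1 and 11.4 CPM in H-CM. In TME-CM it was at 23.9, 22.2, 17.5 and 16.4 CPM. The groups overlapped at each time point. The difference of TME-CM from H-CM was 0.10 at 24 h (95% interval -0.53 to 0.74, adjusted p = 0.927) and 0.28 at 12 h (95% interval -0.427 to 0.995, adjusted p = 0.846), both on the log2 scale. Entpd2 (chr2:25395874-25401321) shares 612 exon bases with Npdc1 on the same strand, 426 of them within its last 1000 exon bases, so its counts are uncertain.

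Entpd1, which degrades ATP and ADP to AMP, lies on chromosome 19 (chr19:40612366-40741602). At 24 h it was at 11.4, 2.73, 4.17 and 1.12 CPM in unstimulated EGCs and 2.26, 1.65, 5.18 and 6.85 CPM in H-CM. In TME-CM it was at 0, 4.36, 1.07 and 0 CPM, where 2 of 4 libraries had no count but 1 library lay within the range of the other groups. The log2 difference of TME-CM was -1.89 from H-CM (95% interval -4.06 to 0.29, adjusted p = 0.394) and -2.18 from unstimulated EGCs (95% interval -4.32 to -0.05, adjusted p = 0.235). The difference from unstimulated EGCs passed the test without the filter on low counts (adjusted p = 0.00839) and without TME-CM replicate 2 (log2 difference -3.54, adjusted p = 0.0251), and over the 8 fits with 1 library left out its adjusted p ran from 0.0251 to 0.508. At 6 h TME-CM replicate 3 held 123 counts of Entpd1, or 43.2 CPM, and the 3 other TME-CM libraries held 2, 7 and 0 counts.

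Nt5e, the gene of CD73 on chromosome 9 (chr9:88327197-88372092), had no count in 22 of 36 libraries. In TME-CM its counts were 0, 0, 0 and 11 at 6 h, 3, 0, 4 and 3 at 12 h, and 6, 0, 2 and 4 at 24 h. In H-CM at 24 h they were 0, 3, 3 and 1. The highest level in any library was 2.06 CPM, and no test was made because the gene did not pass the filter at any time point.

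Counted over the list, TME-CM against H-CM called 1 of 7 tested members at 12 h, Adora2b, where 1.89% of all 12156 tested genes were called in either direction. At 24 h it called 1 of 9, P2rx4, where 5.4% of 12713 genes were called. Against unstimulated EGCs, TME-CM called 1 of 7 at 12 h, Adora2b, beside 4.41% of all genes, and 2 of 9 at 24 h, P2rx4 and P2ry6, beside 9.52%. Libraries did not overlap between TME-CM and H-CM for 3 of 7 members at 12 h, beside 7.29% of all genes, and for 3 of 9 at 24 h, beside 11.2%. Between TME-CM and unstimulated EGCs it was 3 of 7, beside 10.6%, and 3 of 9, beside 13.1%. Between H-CM and unstimulated EGCs it was 0 of 7 at 12 h, beside 3.94%, and P2ry1 at 24 h. The median log2 difference of TME-CM from H-CM was 0.28 over the tested members at 12 h and 0.55 at 24 h, against 0 and 0.01 over all tested genes. A member that passed the filter through its level in TME-CM was bound to differ, so these shares and medians describe the tested members and do not stand for all 10.

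H-CM against unstimulated EGCs called 0 of 7 members at 12 h and 0 of 9 at 24 h with edgeR, beside 0.403% and 2.03% of all genes. At an unadjusted p under 0.05 it was 0 members at 12 h and 2 at 24 h, P2ry1 and P2ry2, and DESeq2 called 0 at either time. The share of all genes at that unadjusted threshold was not counted. Counts at an unadjusted p, here and below, are therefore no result about the members or lists. At 6 h edgeR called 0 of 4 members in each of the 3 comparisons, with 1 at an unadjusted p under 0.05 in both TME-CM comparisons, Adora2b, and 0 in H-CM against unstimulated EGCs. DESeq2 called 0 there too. The shares of all 9256 genes called at 6 h were 0.0972% for TME-CM against H-CM, 0.454% for TME-CM against unstimulated EGCs and 0% for H-CM against unstimulated EGCs.

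Change with time was tested in one model of the 24 libraries of 12 h and 24 h. From 12 h to 24 h, 0 of 9 members were called by edgeR in unstimulated, H-CM or TME-CM EGCs, beside 0.0153%, 0.00763% and 0.626% of 13105 genes, and DESeq2 also called 0. At an unadjusted p under 0.05 it was 0, 2 and 0 members, the 2 in H-CM being P2rx4 (log2 difference 0.38, 95% interval 0.004 to 0.757) and P2ry1 (-1.76, 95% interval -3.15 to -0.37). The TME-CM difference from H-CM changed between the times by -0.91 for Adora2b (95% interval -2.53 to 0.73) and by -0.14 for P2rx4 (95% interval -0.66 to 0.39), on the log2 scale. For this change 0 of 9 members were called by either tool and 0 at an unadjusted p under 0.05, beside 0% of all genes. So Adora2b being called at 12 h and P2rx4 at 24 h is not shown to be a difference in time course.

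A wider list of 35 other genes of the pathway gave 1 called gene in TME-CM against H-CM at 24 h, of 17 that passed the filter. With 5.4% of all tested genes called there, 1 of 17 is near the background and says nothing particular of the list. The gene was Cd38, an ectoenzyme that consumes NAD. Cd38 was at 14.02 to 18.46 CPM in TME-CM, 6.04 to 10.3 CPM in H-CM and 5.18 to 10.6 CPM in unstimulated EGCs at 24 h. TME-CM did not overlap with the other groups, and its log2 fold change was 0.99 over H-CM (SE 0.27, adjusted p = 0.0272) and 1.03 over unstimulated EGCs (SE 0.26, adjusted p = 0.0109). Against unstimulated EGCs, Gsdmd and Alpl were called too, 3 of 17 in all beside 9.52% of all genes. Gsdmd, the pore protein of pyroptosis, was at 9.11 to 18.4 CPM in TME-CM and 2.18 to 6.85 CPM in unstimulated EGCs (log2 fold change 1.62, SE 0.34, adjusted p = 0.0024), with H-CM at 4.56 to 8.75 CPM. Alpl, an alkaline phosphatase that can dephosphorylate nucleotides, was at 0.436 to 4.55 CPM in TME-CM and 0 to 0.802 CPM in unstimulated EGCs, groups that overlapped (log2 fold change 2.72, SE 0.75, adjusted p = 0.0178).

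By role, the rest of the wider list was as follows in TME-CM against H-CM at 24 h. The genes named here that were not called were chosen after their values were seen. Counts at an unadjusted p under 0.05 have no share of all genes beside them and say nothing particular of a role. Of 5 other P2X channels 2 passed the filter and 0 were called by edgeR, with 0 at an unadjusted p under 0.05, and of 4 other P2Y receptors 0 passed the filter. P2ry12, a marker of brain microglia, averaged 0 CPM in unstimulated EGCs and H-CM and 0.0813 CPM in TME-CM. Of 3 other adenosine receptors Adora1, whose product couples to inhibitory G proteins, passed the filter. Its mean was 7.18 CPM in unstimulated EGCs, 8.86 CPM in H-CM and 13.7 CPM in TME-CM (TME-CM against unstimulated EGCs, log2 difference 0.92, SE 0.31, adjusted p = 0.0701). For ATP release, 3 of 5 genes passed and 0 were called by edgeR, with 2 at an unadjusted p under 0.05. Gja1, which encodes a connexin of gap junctions and hemichannels, had a mean of 61.2, 57.1 and 58.3 CPM in unstimulated EGCs, H-CM and TME-CM. For uptake and turnover of adenosine, 4 of 5 passed and 0 were called by edgeR, with 2 at an unadjusted p under 0.05. Of the 7 genes of P2X7 and inflammasome signaling 3 passed, with 0 called by edgeR and 1 at an unadjusted p under 0.05, and Nlrp3, the sensor downstream of P2X7, averaged 0 CPM in unstimulated EGCs, 0.144 CPM in H-CM and 1.93 CPM in TME-CM, where 17 of 19 counts came from 1 library. At 12 h, 14 of the 35 genes passed the filter and 0 were called by edgeR in TME-CM against H-CM, with 1 at an unadjusted p under 0.05.

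**Figure D3:**
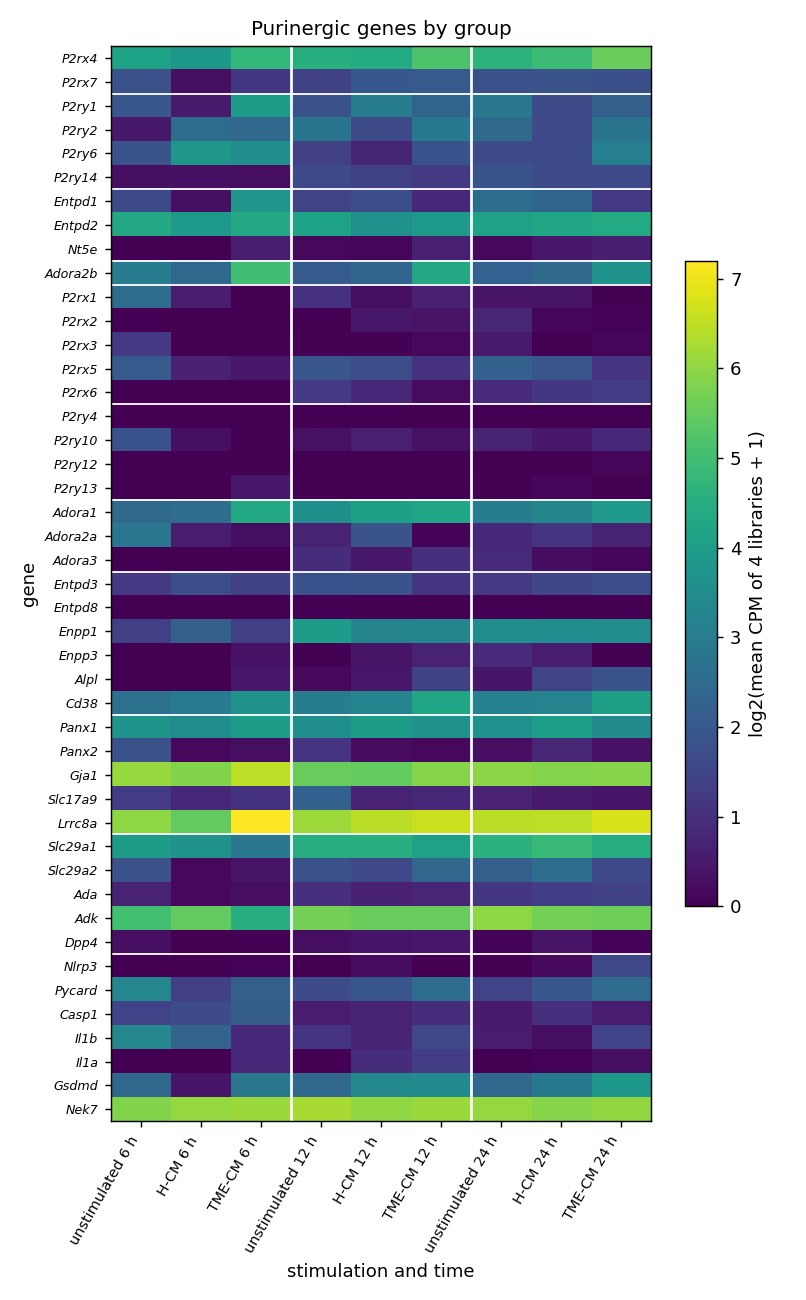
Heatmap of log2(mean CPM of 4 libraries + 1) for the 10 members, at the top, and the 35 genes of the wider list, in rows grouped by role, across the 9 groups in columns ordered by time. The P2ry4 and Entpd8 rows are at 0 at 12 h and 24 h, and Cd38 and Gsdmd are brighter in TME-CM at 24 h than in unstimulated EGCs.

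Markers of cells other than glia were detected, and in bulk libraries fewer cells of a type and less RNA per cell cannot be told apart. Of 10 macrophage and other myeloid markers, 8 were over 1 CPM on average at 24 h, with Aif1 and Cx3cr1 under 1 CPM, and P2rx4 and P2ry6 are also known from these cells. The summed myeloid level overlapped between media at 24 h, with 61.6 to 246 CPM in unstimulated EGCs, 86.7 to 376 CPM in H-CM and 75.2 to 391 CPM in TME-CM. Most of this sum was Lyz2, with means of 95.9, 158 and 149 CPM in the same order. The next highest marker, Itgam, had means of 16.1, 9.65 and 15.5 CPM. Of the 8 myeloid markers tested, 0 were called by edgeR in TME-CM against H-CM at 12 h or 24 h, and 0 had an unadjusted p under 0.05. Within TME-CM at 24 h the summed myeloid level was 232, 391, 113 and 75.2 CPM in replicates 1 to 4, beside P2rx4 levels of 49.1, 42.8, 41.3 and 52.3 CPM. P2ry6 was at 9.59, 8.29, 4.73 and 7.99 CPM in the same libraries. In H-CM at 24 h the sum was 229, 376, 135 and 86.7 CPM in replicates 1 to 4. Beside it P2rx4 was at 34.0, 27.1, 31.4 and 26.8 CPM, and P2ry6 at 3.62, 3.29, 0.986 and 0.571 CPM. How either gene follows the myeloid level was not tested.

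Fibroblast and smooth muscle markers did move with the media. The summed fibroblast level at 24 h was 3931 to 4840 CPM in H-CM, 5219 to 6651 CPM in TME-CM and 4707 to 6362 CPM in unstimulated EGCs, and 3 of 4 tested markers, Pdgfra, Dcn and Lum, were higher in TME-CM than in H-CM. The smooth muscle sum was 7463 to 8577 CPM in unstimulated EGCs, 3425 to 4202 CPM in H-CM and 1762 to 2631 CPM in TME-CM, without overlap, with 4 of 5 markers lower in TME-CM than in H-CM. The endothelial sum was 11.6 to 28.0 CPM in TME-CM and 34.9 to 69.6 CPM in H-CM. The endothelial gene Kdr was lower in TME-CM than in H-CM and made up most of the sum, with means of 14.3 and 45.5 CPM. In the same order, the 24 h means were 3.86 and 5.47 CPM for Pecam1 and 0.251 and 0.24 CPM for Cdh5. Those of Tek were 0 and 0.0925 CPM. At 12 h, the time of the Adora2b calls, the fibroblast sum was 4630 to 5319 CPM in TME-CM, 3159 to 4376 CPM in H-CM and 4233 to 5341 CPM in unstimulated EGCs, so that TME-CM lay above H-CM without overlap, and 1 of 4 tested markers, Dcn, was higher. The smooth muscle sum at 12 h was 2549 to 2735 CPM in TME-CM, 2983 to 4344 CPM in H-CM and 4520 to 4923 CPM in unstimulated EGCs, without overlap, with 2 of 5 markers lower in TME-CM than in H-CM. The endothelial sum at 12 h was 24.9 to 39.0 CPM in TME-CM, 44.3 to 56.1 CPM in H-CM and 29.5 to 68.6 CPM in unstimulated EGCs. Most of it was Kdr, with means of 22.9 CPM in TME-CM and 49 CPM in H-CM at 12 h. The other endothelial markers had higher means in TME-CM than in H-CM there. These were 5.01 and 3.2 CPM for Pecam1, 2.02 and 0.281 CPM for Cdh5, and 0.262 and 0.0739 CPM for Tek. The summed myeloid level at 12 h overlapped, with 78.2 to 386 CPM in TME-CM and 78.6 to 254 CPM in H-CM. All 6 neuron markers averaged over 1 CPM in each medium at 12 h and 24 h. Their sum at 24 h was 377.5 to 445.5 CPM in unstimulated EGCs, 379.9 to 434.2 CPM in H-CM and 312.4 to 481.7 CPM in TME-CM. At 12 h it was 339 to 426.6, 359 to 423.5 and 320.6 to 454.5 CPM in the same order, and the media overlapped at both times. The part of all these cells in the P2rx4, P2ry6 and Adora2b results was not tested. Of the 5 epithelial and the 4 T and B cell markers, 0 passed the filter at 12 h or 24 h.

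**Figure D4:**
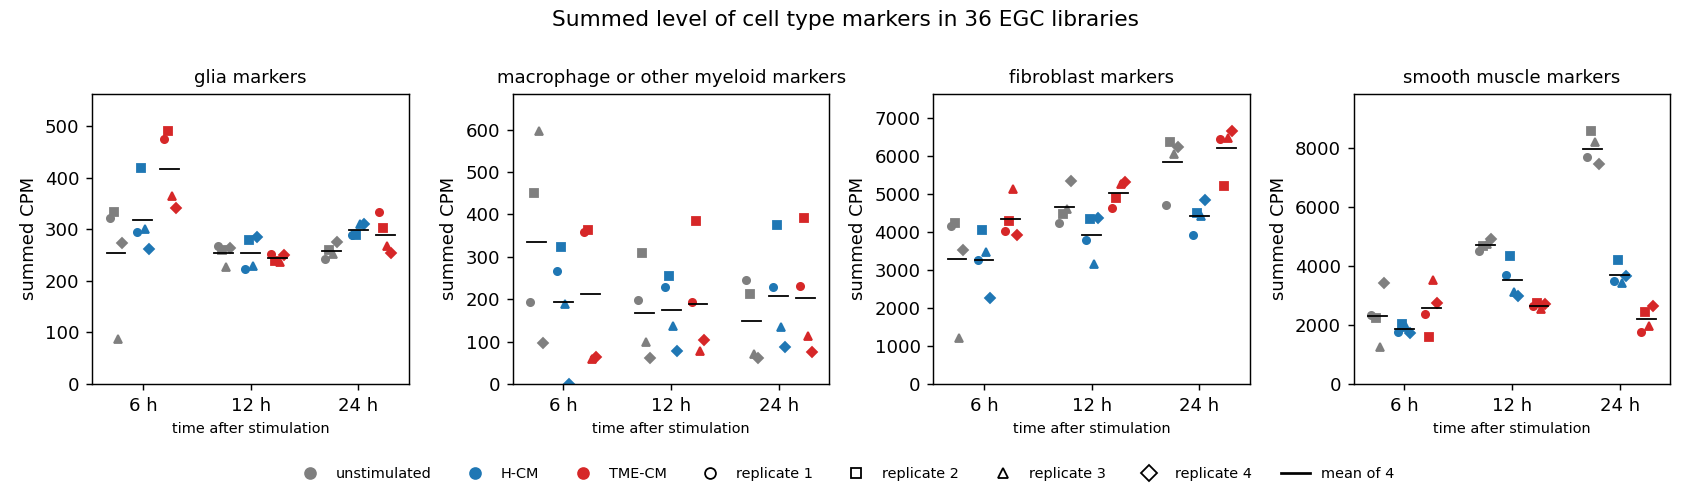
Summed level, in CPM from 0, of glial, myeloid, fibroblast and smooth muscle markers in each of the 36 libraries by time after stimulation; colors give the medium, symbols the replicate number and bars the mean of 4. Smooth muscle markers at 24 h run from unstimulated (highest) over H-CM to TME-CM (lowest), and myeloid markers overlap between the media.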

How the data were processed

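The deposited counts per gene were made by the authors from QuantSeq 3′ mRNA libraries of 36 EGC samples: quality control with FastQC 0.11.7, adapter filtering with fastq-mcf, alignment to mm10 with HISAT2, removal of reads mapping to more than 1 locus, handling with SAMtools 1.5 and counting with HT-seq Count. Annotation, strand setting and molecular identifiers are not given in the sources used here. Groups follow the labels, and 0 columns were left out.

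The tests were run with edgeR 4.0.16 (on limma 3.58.1) under R 4.3.3, and DESeq2 1.42.0 served as an alternative. For each time point, 12 libraries were fitted in one quasi-likelihood model with TMM factors after filterByExpr (minimum count 10), which kept 9256, 12156 and 12713 genes at the 3 times in order. Benjamini-Hochberg adjustment covered all tested genes, and a call is an adjusted p under 0.05. Times were compared in one model of 24 libraries (13105 genes). CPM are on TMM-scaled library sizes. SEs are from the unshrunk coefficients. Totals were 13518 to 7552509 counts per library. No replicate pair agreed within sampling noise (smallest chi-square per degree of freedom 3.32 over 54 pairs).

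Alternatives were DESeq2's size factors and its Wald test, no filter, only the groups compared, all 36 libraries in one model, a block on replicate numbers, Yam1 left out and each library left out. Named genes were all 10 members, genes of the wider list with an adjusted p under 0.05 in TME-CM against H-CM at 12 h or 24 h or in either medium against unstimulated EGCs at 24 h, and the 3 genes most alike to each member called in TME-CM against H-CM at 24 h. Some genes of the wider list that were not called, among them P2ry12, Adora1, Gja1 and Nlrp3, were named after their values were seen. The members and lists were chosen with earlier results of these data known. Positions are from GENCODE on GRCm38, the assembly also called mm10, and promoters from RefSeq.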

Additional observations from a re-analysis of the deposited data

Results flagged for a closer look

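In 17 of 90 groups of 4 libraries, 1 library lay far from the other 3 for a member, by Dixon's test at the 95% level, which chance alone would flag in about 1 of 20 groups of continuous values. In 10 of the 17 the 3 other libraries were at 0, where a single library with a count is flagged by construction, so that rate does not apply to them. Of the 17, 11 were at 6 h. P2ry6 stood at 40.4 CPM in TME-CM replicate 1 at 6 h (202 counts), with the next library at 2.51 CPM. Entpd1 stood at 43.2 CPM in TME-CM replicate 3 at 6 h (123 counts, next 5.85 CPM) and at 7.40 CPM in unstimulated replicate 2 at 6 h (11 counts, next 0.952 CPM). P2ry1 stood at 11.5 CPM in unstimulated replicate 4 at 6 h (63 counts), where the 3 other libraries were at 0, at 17.6 CPM in H-CM replicate 3 at 12 h (74 counts, next 4.43 CPM) and at 9.11 CPM in TME-CM replicate 2 at 12 h (22 counts, next 2.62 CPM). Adora2b stood at 29.1 CPM in TME-CM replicate 4 at 12 h (111 counts, next 16.8 CPM), a library without which its calls at 12 h are lost. P2ry14 stood at 5.14 CPM in H-CM replicate 4 at 24 h (9 counts, next 1.13 CPM).

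The others rest on 1 to 11 counts in a single library, with the 3 other libraries of the group at 0. At 6 h these were P2rx7 at 0.913 CPM in H-CM replicate 2 and 5.02 CPM in TME-CM replicate 2, P2ry14 at 0.952 CPM in unstimulated replicate 1, 0.913 CPM in H-CM replicate 2 and 0.836 CPM in TME-CM replicate 2, Entpd1 at 0.913 CPM in H-CM replicate 2, and Nt5e at 2.06 CPM in TME-CM replicate 4. At 12 h they were Nt5e at 0.416 CPM in unstimulated replicate 4 and 0.296 CPM in H-CM replicate 4.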

How the results depend on the processing

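The number of members called moved with the processing. For TME-CM against H-CM at 12 h, where edgeR called 1, DESeq2's Wald test called 2, and 0 were called with a replicate block, with only the groups compared or with all 36 libraries in one model. Over all genes these fits called 230, 378, 207, 164 and 81, in the order named. At 24 h, where edgeR called 1, DESeq2 and no filter on low counts each called 3, the replicate block and only the groups compared each called 2, and all 36 libraries called 0. Over all genes these fits called 686, 843, 896, 675, 670 and 71, in the order named. For TME-CM against unstimulated EGCs, DESeq2 called 2 at 12 h against 1, no filter called 4 at 24 h against 2, and all 36 libraries called 0 at both times. Over all genes DESeq2 called 705 at 12 h against 536, and no filter called 1366 at 24 h against 1210. At 6 h all 36 libraries called 1 member, Adora2b, in both TME-CM comparisons, where the fit by time point called 0. Leaving out 1 library gave 0 to 1 members for TME-CM against H-CM at 12 h and 0 to 3 at 24 h, and 0 to 1 and 1 to 3 against unstimulated EGCs. DESeq2's size factors and leaving Yam1 out changed no call of a member.

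In no alternative did a called member change sign, and 107 values that were not called did, 90 of them with 1 library left out. The common dispersion fell with time (0.572, 0.122 and 0.0455 in the models of 6 h, 12 h and 24 h), and the fit of all 36 libraries shares one estimate. The replicate numbers share no stated culture or day, and they were not taken as pairs, since the correlation of deviations of same-numbered libraries ran from -0.162 to 0.229 and was not above 0.1 in every pair, and not every library correlated best with its own number. With the replicate block, Adora2b against H-CM at 12 h had an adjusted p of 0.0619, and P2ry6 against H-CM (0.0313) and Adora2b against unstimulated EGCs (0.0244) at 24 h were called. Over all genes, TME-CM against H-CM gave 686 calls at 24 h against 71 with all 36 libraries, 230 at 12 h against 465 with no filter, 378 with DESeq2 and 81 with all 36 libraries, and 9 at 6 h against 2 to 899 under the alternatives. TME-CM against unstimulated EGCs gave 42 at 6 h against 19 to 1113, and 536 at 12 h and 1210 at 24 h against 288 and 265 with all 36 libraries. H-CM against unstimulated EGCs gave 0 at 6 h against 1 with no filter, 49 at 12 h against 168 with no filter, 99 with DESeq2 and 28 with only the groups compared, and 258 at 24 h against 446, 412 with DESeq2 and 34 with all 36 libraries. From 12 h to 24 h the counts were 2 in unstimulated EGCs against 0 to 49, 1 in H-CM against 0 to 63, and 82 in TME-CM against 2 to 175, and for the change of the TME-CM difference 0 against 4 with no filter. With 1 library left out, TME-CM against H-CM gave 137 to 297 calls at 12 h (137, 138 and 141 without H-CM replicate 2, TME-CM replicate 4 and TME-CM replicate 1) and 417 to 776 at 24 h (417 and 451 without H-CM replicates 3 and 2), and H-CM against unstimulated EGCs gave 23 to 57 at 12 h and 161 to 250 at 24 h, lowest without unstimulated replicates 1 and 4 in turn. Low counts limit P2rx7, P2ry1, P2ry2, P2ry6, P2ry14, Entpd1 and Nt5e, each with at most 739 counts in all 36 libraries.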

Other observations

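The summed level of myeloid markers was higher in replicates 1 and 2 than in replicates 3 and 4 for each medium at 12 h and 24 h. At 24 h it was 246 and 213 CPM against 71.2 and 61.6 CPM in unstimulated EGCs, 229 and 376 CPM against 135 and 86.7 CPM in H-CM, and 232 and 391 CPM against 113 and 75.2 CPM in TME-CM. At 12 h it was 199 and 310 CPM against 98.7 and 60.1 CPM in unstimulated EGCs, 229 and 254 CPM against 137 and 78.6 CPM in H-CM, and 192 and 386 CPM against 78.2 and 103 CPM in TME-CM. Lyz2 had the highest mean of the 10 myeloid markers in each medium at 12 h and 24 h. The labels do not say whether a number marks a shared culture. P2ry6 in H-CM at 24 h was also higher in replicates 1 and 2 (3.62 and 3.29 CPM) than in replicates 3 and 4 (0.986 and 0.571 CPM). In TME-CM at 24 h it was 9.59 and 8.29 CPM against 4.73 and 7.99 CPM. In unstimulated EGCs at 24 h P2ry6 did not have this order, at 4.56 and 0.91 CPM against 1.12 and 1.82 CPM. At 12 h no medium had it. There P2ry6 was at 4.21 and 0.856 against 0 and 1.25 CPM in unstimulated EGCs. It was at 0.275 and 1.08 against 0 and 1.33 CPM in H-CM, and 2.32 and 2.49 against 3.72 and 1.57 CPM in TME-CM. No test was made of this split, which was seen in the data.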
